A study of Mus musculus with 47 samples.

Results

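The glucocorticoid receptor, its relative and 8 of their target genes, 10 genes in all, were followed in the medial prefrontal cortex (PFC) of mice after chronic intermittent ethanol (CIE). The set comprised the 2 corticosteroid receptor genes Nr3c1 and Nr3c2 and the 8 target genes Fkbp5, Sgk1, Sgk3, Tsc22d3, Arrdc2, Zbtb16, Sult1a1 and Htra1. Members were taken by symbol. Every probeset of the Affymetrix array whose annotation gave only that symbol was read, which yielded 25 of the 45037 probesets and 10 of the 18193 genes that had a probeset of their own. Nr3c1 was read by 6 probesets, Tsc22d3 by 4, Fkbp5, Sgk3 and Zbtb16 by 3 each, Htra1 by 2, and Nr3c2, Sgk1, Arrdc2 and Sult1a1 by 1 each.

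All mice were adult C57BL/6J males and contributed 1 array each, 47 in total. CIE mice had inhaled ethanol vapor at 10 to 13 mg/l of air for 16 hours a day on 4 days, followed by 7 days of abstinence, over 4 cycles, and had received ethanol at 1.6 g/kg before each cycle to start intoxication. Ctrl mice had sat in the same kind of chamber with air and had received saline in its place. CIE and Ctrl mice alike had received pyrazole, an inhibitor of alcohol dehydrogenase, at 1 mmol/kg. Brains were harvested when the final session ended (0h) and 8h, 72h and 7d later, with 6 CIE and 6 Ctrl mice at each time except for the CIE group at 8h, which had 5 mice. Since every mouse carried both pyrazole and repeated chamber sessions, a difference between CIE and Ctrl covers ethanol and its injection against air and saline.

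Corticosterone, the main glucocorticoid of mice, crosses membranes and binds a pair of nuclear receptors in the brain, the mineralocorticoid receptor at low and the glucocorticoid receptor at high hormone levels. The hormone-free glucocorticoid receptor waits in the cytosol in a complex with Hsp90 and immunophilins. Once bound, it moves to the nucleus and pairs on DNA at glucocorticoid response elements, which are inverted repeats of a hexamer set apart by 3 bases. Its targets include its own brake, Fkbp5, which lowers the receptor's affinity for hormone, and kinases, anti-inflammatory factors and metabolic genes. Fewer cells of a type and less RNA per cell cannot be told apart in whole tissue.

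The response element itself can be read in the promoter of Sgk1, the kinase named after this hormone. Promoter windows of 300 bases (250 before and 50 after a start site, RefSeq, build GRCm38.p6) were read. Those on the chromosome of Nr3c1 were left out for the members, so a window of Nr3c1 was not looked for. None was listed for Sgk3 and Zbtb16, and the other 7 of the 10 genes had 14 windows in all. The consensus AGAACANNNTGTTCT, which reads the same on both strands, occurred in 1 of these windows, at Sgk1, and in 3 of 32851 windows of this length over all genes (0.00913%). The looser core GNACANNNTGTNC, which the consensus also contains, occurred in 156 of them (0.475%) and, among the 14, in the same window of Sgk1. The hexamer TGTTCT, which the consensus contains, occurred on either strand in 5 of the 14 windows, belonging to Sgk1, Sult1a1 and Tsc22d3, and in 19% of all windows. Below, 1 window is shown for each of these 3 genes, which were higher in CIE mice or came close to it, and capitals mark the consensus and the hexamers. For Sgk1 it is the window with the consensus, and its other windows with a hexamer are not shown.
Sgk1, chr10:21993640-21993939, plus strand: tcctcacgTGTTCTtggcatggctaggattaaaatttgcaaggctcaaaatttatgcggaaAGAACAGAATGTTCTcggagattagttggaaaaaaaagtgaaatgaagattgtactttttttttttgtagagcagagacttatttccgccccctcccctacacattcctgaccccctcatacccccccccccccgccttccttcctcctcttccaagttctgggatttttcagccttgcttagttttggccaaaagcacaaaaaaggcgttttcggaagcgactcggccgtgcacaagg
Sult1a1, chr7:126676369-126676668, minus strand: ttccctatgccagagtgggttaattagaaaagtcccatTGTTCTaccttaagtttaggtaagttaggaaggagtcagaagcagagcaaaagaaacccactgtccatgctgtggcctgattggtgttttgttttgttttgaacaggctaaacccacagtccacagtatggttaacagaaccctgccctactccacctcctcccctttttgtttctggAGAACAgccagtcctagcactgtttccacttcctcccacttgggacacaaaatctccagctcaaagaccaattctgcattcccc
Tsc22d3, chrX:140600473-140600772, minus strand: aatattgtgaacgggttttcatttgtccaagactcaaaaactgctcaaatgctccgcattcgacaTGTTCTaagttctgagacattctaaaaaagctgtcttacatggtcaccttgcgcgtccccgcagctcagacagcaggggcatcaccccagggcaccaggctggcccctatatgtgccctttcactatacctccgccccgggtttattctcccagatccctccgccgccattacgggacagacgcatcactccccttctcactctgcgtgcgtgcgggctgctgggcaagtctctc
The consensus at Sgk1 began 189 bases before the start site and read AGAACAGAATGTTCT, and a further hexamer outside it began 242 bases before the start site. At Sult1a1 the hexamers began 212 and 34 bases before the start site, and at Tsc22d3 the hexamer began 185 bases before it. Arrdc2, Fkbp5, Htra1 and Nr3c2 held neither string in their listed windows. A string in such a window is not a measured binding site, and its lack says nothing about sites elsewhere, such as enhancers.

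Values are log2 expression levels from robust multi-array averaging, so that a difference of 1 is a doubling, and levels are compared only within a probeset. Of 8 genes listed as markers of cortical excitatory neurons 7 were measured, at mean levels between 8.31 (Emx1) and 14.28 (Snap25). Arrays resembled each other closely, with a mean correlation with the other arrays of 0.967 to 0.994. The lowest value belonged to CIE 8h mouse 15, and the next array, of a CIE 0h mouse, lay at 0.985. The repeat group, which the labels number without saying what it stands for and which the batch correction used, was 2 for 2 CIE and 3 Ctrl mice at 8h and 1 for all other mice. Markers of striatal medium spiny neurons, from the tissue next to the PFC, were uneven. At 0h all 11 measured markers of 13 listed had a higher mean in CIE mice (median difference 0.79), although none passed the test on its probeset of highest level and 2 did on another. Their mean was 8.98 in CIE mice (range 8.20 to 10.18) and 8.18 in Ctrl mice (range 7.91 to 8.41), with marker means between 5.14 (Drd2) and 10.90 (Penk). CIE mice 5, 11 and 17 stood at 9.77, 10.18 and 9.19, and the other 3 at 8.20 to 8.31.

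At 0h, the end of the last ethanol session, 8 of the 10 genes differed between CIE and Ctrl mice at FDR ≤ 0.01 on at least 1 probeset in LIMMA, against 12.7% of all genes. By probeset, 11 of 25 were higher (3.69% of all probesets) and 1 was lower (3.58%) in CIE mice, together 48%, against 7.28% of all probesets. At 8h, 6 genes differed (6.29% of all genes), with 5 of 25 probesets higher (2.28% of all probesets) and 1 lower (1.11%), together 24%, against 3.39% of all probesets. The genes had been chosen with such results known, and these shares describe them without serving as evidence. At 72h none of the 25 probesets passed, although 3 reached an unadjusted p of 0.05, with 0.528% of all probesets passing. At 7d again none passed and 5 reached an unadjusted p of 0.05, with 0.948% of all probesets passing. Over the probesets of highest mean level, 1 for each gene and termed lead probesets here, the median difference was 0.49 at 0h, 0.37 at 8h, -0.06 at 72h and -0.07 at 7d. Over the lead probesets of all genes it stayed between -0.009 and 0.014.

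**Figure D1:**
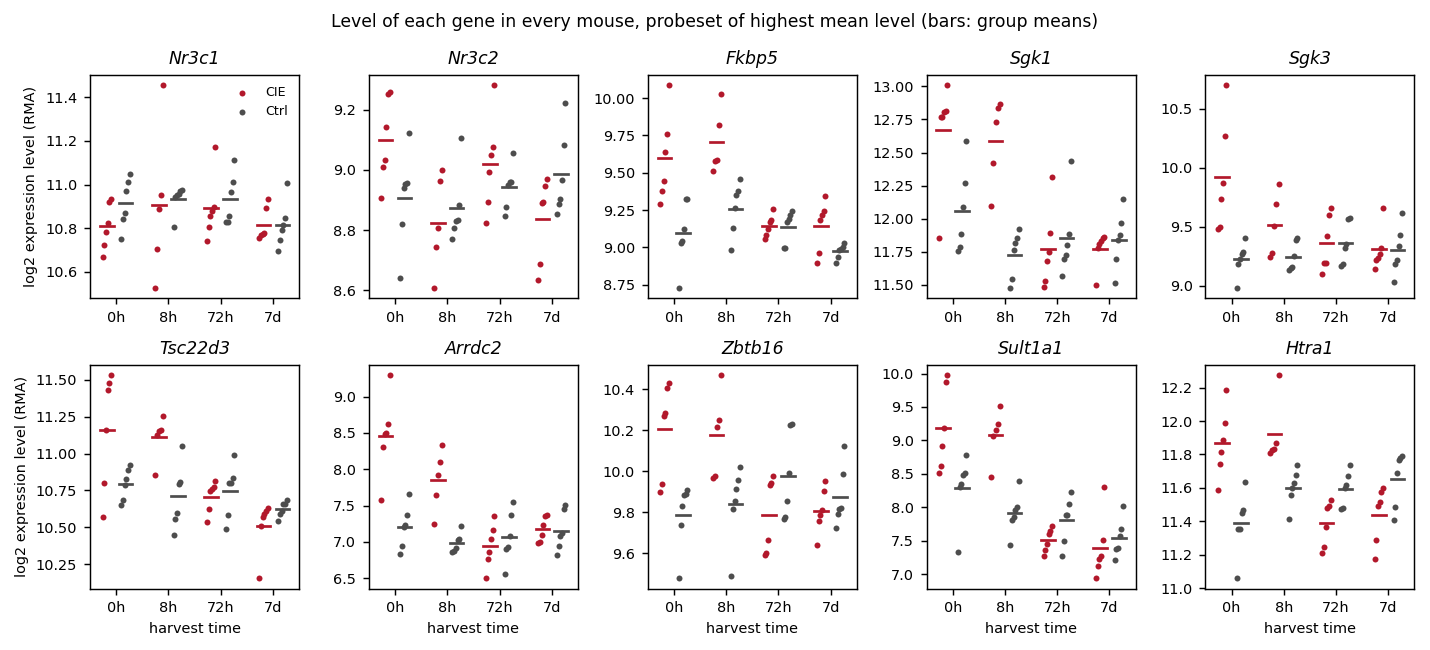
Log2 expression level (y axis) of the lead probeset of each gene in every mouse at each harvest time (x axis), with CIE mice in red left of Ctrl mice in grey and bars at the group means. At 0h and 8h the CIE means of the 8 target genes lie above the Ctrl means. At 72h and 7d the ranges of CIE and Ctrl mice overlap for each gene, and for Htra1 every CIE mouse lies below the Ctrl mean.

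**Figure D2:**
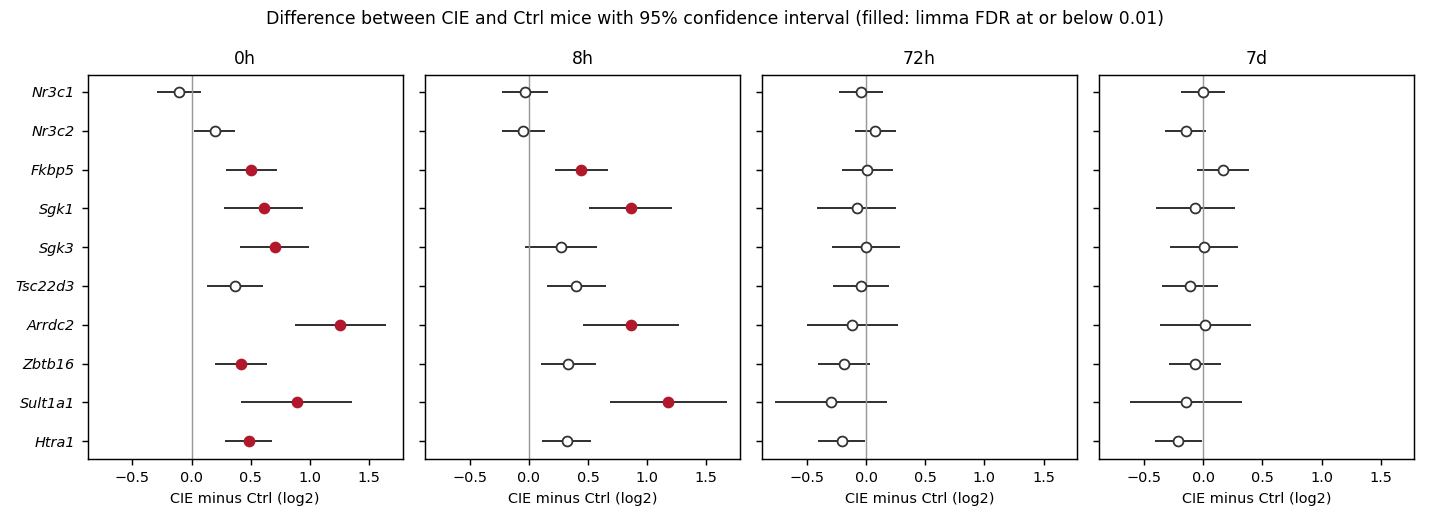
CIE minus Ctrl difference of each lead probeset (x axis, log2) with its 95% confidence interval from LIMMA, by gene (y axis) and harvest time (panels), filled where FDR ≤ 0.01. At 0h 7 genes are filled, Fkbp5, Sgk1, Arrdc2 and Sult1a1 at 8h, and none at 72h or 7d.

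Nr3c1 encodes the glucocorticoid receptor, and its probesets did not move together. On the lead probeset (1460303_at) levels at 0h ran over 10.67, 10.80 and 10.94 in CIE mice (lowest, median and highest) and over 10.75, 10.92 and 11.05 in Ctrl mice. The groups overlapped, and the difference of -0.11 (SE 0.09) did not pass the test (adjusted p = 0.455). At 8h, 72h and 7d the lead probeset differed by -0.03, -0.04 and 0.00, with 95% confidence intervals that reached no farther than -0.22 and 0.18. The 8h value joins opposite differences, -0.26 within repeat group 1 and 0.30 within repeat group 2. With arrays weighted by quality the 8h difference was -0.20 and passed (adjusted p = 0.00933). A second probeset of nearly the same mean level (1421867_at) gave another picture. At 0h it stood at 10.69, 10.74 and 10.84 in CIE mice and at 10.88, 10.98 and 11.20 in Ctrl mice, so that every CIE mouse lay below every Ctrl mouse. Such a lack of overlap, in either direction, occurred in 7.01% of all probesets at 0h and in 5 of the 25 here. The difference was -0.26 (SE 0.05, adjusted p = 0.000397), a fold of 0.837.

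For this Nr3c1 probeset at 8h the 5 CIE mice had 10.58, 10.60, 10.66, 10.67 and 10.78, and the Ctrl mice ran over 10.86, 10.88 and 11.03. The groups again did not overlap, as in 6.37% of all probesets and 8 of the 25 here, and the difference was -0.25 (SE 0.05, adjusted p = 0.00226). Within repeat group 1 it was -0.16 and within repeat group 2 it was -0.36. At 72h the difference was -0.06 (adjusted p = 0.69). At 7d the CIE mice lay at 10.79, 10.83 and 10.91 and the Ctrl mice at 10.93, 11.00 and 11.11, once more without overlap, as for 3.35% of all probesets and for no other probeset of the 10 genes. That difference, -0.16, did not pass (adjusted p = 0.0652) unless arrays were weighted by quality.

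The other 4 Nr3c1 probesets passed at no time in this model. The brightest of them (1457635_s_at) differed by 0.72 at 8h (SE 0.19, adjusted p = 0.014), with 8.77, 8.96, 9.24, 9.29 and 10.76 in CIE mice. The highest of these values is that of mouse 15, and the difference was 0.41 in repeat group 1 and 1.23 in repeat group 2. With the repeat group as a term it was 0.77 and passed (adjusted p = 0.003). The dimmer 1421866_at had 4.56 and 5.18 in the CIE mice of repeat group 2 and 6.91 to 7.23 in those of repeat group 1. Which transcript forms these probesets read was not tested.

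**Figure D3:**
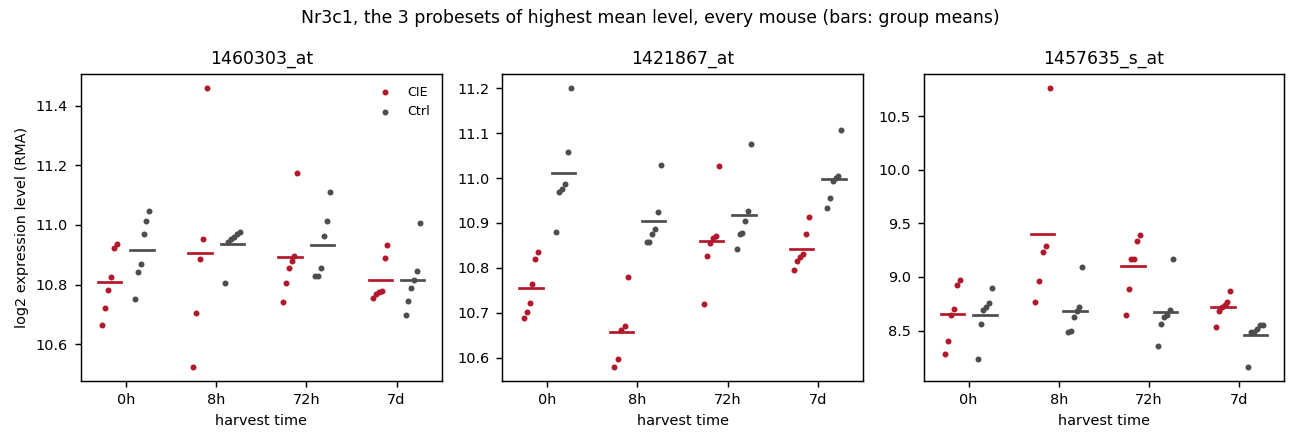
Log2 level (y axis) of the 3 Nr3c1 probesets of highest mean level in every mouse, by harvest time (x axis), with CIE in red left of Ctrl in grey and bars at the group means. On 1421867_at the CIE mice lie below all Ctrl mice at 0h, 8h and 7d, on 1460303_at the groups overlap throughout, and on 1457635_s_at CIE mouse 15 stands at 10.76 at 8h.

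Nr3c2, the mineralocorticoid receptor gene, did not pass at any time on its single probeset. At 0h it ran over 8.91, 9.09 and 9.26 in CIE mice and over 8.64, 8.95 and 9.12 in Ctrl mice, a difference of 0.20 (95% confidence interval 0.03 to 0.36, adjusted p = 0.0985). The differences were -0.05 at 8h, 0.08 at 72h and -0.15 at 7d. Its 8 group means spanned 0.28, and no 2 neighbours in their order were farther apart than the larger of their SDs. The same held for the 8 group means of the Nr3c1 lead probeset, which spanned 0.13.

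Fkbp5 encodes FKBP51, the immunophilin that slows the receptor and is itself induced by it. In CIE mice at 0h it ran over 9.29, 9.54 and 10.09, against 8.73, 9.08 and 9.32 in Ctrl mice, and 5 of 6 CIE mice lay above every Ctrl mouse. The difference was 0.50 (SE 0.10, adjusted p = 0.000698), or 1.42-fold. At 8h the CIE mice had 9.51, 9.58, 9.59, 9.82 and 10.03, all above the Ctrl mice at 8.99, 9.31 and 9.46. The difference was 0.44 (SE 0.11, adjusted p = 0.00695), with 0.45 in repeat group 1 and 0.39 in repeat group 2. By 72h the group means were 9.15 in CIE and 9.14 in Ctrl mice. At 7d the CIE mice averaged 9.14 and the Ctrl mice 8.97, and the difference of 0.17 did not pass (adjusted p = 0.419). A dimmer Fkbp5 probeset (1448231_at) was higher at 0h by 0.57 (SE 0.15, adjusted p = 0.00691) without overlap, and differed by 0.07 at 8h (adjusted p = 0.815). The third (1447736_at), with a mean of 3.60 among the dimmest 0.671% of probesets, did not pass at any time.

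Sgk1, the serum and glucocorticoid regulated kinase, acts on ion channels and transporters and was the brightest probeset of the set, with a mean of 12.02 over all arrays. At 0h CIE mice ran over 11.85, 12.79 and 13.01 and Ctrl mice over 11.76, 11.98 and 12.58. Of the CIE mice, 5 of 6 were above every Ctrl mouse, and mouse 72 was below the Ctrl mean. The difference was 0.61 (SE 0.16, adjusted p = 0.0074), or 1.52-fold, and without mouse 72 it was 0.77 (adjusted p = 0.000406). With array weights it was 0.50 and did not pass (adjusted p = 0.0294). At 8h the CIE mice had 12.09, 12.42, 12.73, 12.83 and 12.86, all above the Ctrl mice at 11.48, 11.79 and 11.93. The difference was 0.86 (SE 0.17, adjusted p = 0.00125), or 1.81-fold, with 0.69 in repeat group 1 and 1.11 in repeat group 2. At 72h and 7d the differences were -0.08 and -0.07. The means at 0h and 8h in CIE mice, 12.67 and 12.59, were followed by 12.06 in the 0h Ctrl mice, and this was the only gap between neighbouring group means that exceeded the larger SD.

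Sgk3, a relative of Sgk1 that is bound to endosomes through a lipid-binding domain, passed at 0h, and at 8h only in other models. On its lead probeset CIE mice ran over 9.48, 9.80 and 10.70, all above the Ctrl mice at 8.98, 9.25 and 9.40. The difference was 0.70 (SE 0.14, adjusted p = 0.000533), or 1.62-fold. A second probeset (1420918_at) was higher by 0.51 (SE 0.14, adjusted p = 0.0085) with no overlap, while the third (1450036_at) differed by 0.19 (adjusted p = 0.376). At 8h none of the 3 passed, with 0.50 on the third (adjusted p = 0.0197), where the groups did not overlap, and 0.27 on the lead probeset (adjusted p = 0.221). The third probeset did pass at 8h with the repeat group as a term (0.52, adjusted p = 0.00965), and 1420918_at, which differed by 0.20 (adjusted p = 0.366), passed with array weights (0.48, adjusted p = 0.00341). Sgk3 was also the gene that followed the striatal markers most closely. Over the deviations of the 47 arrays from their group means, Pearson's r with the mean of those markers was 0.59 for Sgk3, 0.38 for Sgk1, 0.32 for Arrdc2 and between -0.23 and 0.01 for the other 7 genes. With the mean of 10 oligodendrocyte markers, of which none passed at 0h (11.03 in CIE and 10.93 in Ctrl mice), r was 0.45 for Sgk3, 0.46 for Sgk1 and 0.47 for Arrdc2. Other lists of the 11 read gave r of like size. Examples are GABA interneurons with Sgk3 (-0.53), mural cells with Htra1 (0.50) and Sult1a1 (0.46), and microglia with Nr3c1 (-0.47). These values share the arrays and their normalization and are given as a description.

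Tsc22d3 encodes GILZ, a leucine zipper protein that carries part of the anti-inflammatory action of glucocorticoids. Its 4 probesets did not pass at any time in this model, and 1425557_x_at passed at 7d with array weights (0.34, adjusted p = 0.0051). On the lead probeset CIE mice at 0h ran over 10.57, 11.29 and 11.53 and Ctrl mice over 10.65, 10.80 and 10.92, with 4 of 6 CIE mice above every Ctrl mouse. Mouse 72, at 10.57, was below them all. The difference was 0.37 (SE 0.11, adjusted p = 0.0215), and without mouse 72 it was 0.49 and passed (adjusted p = 0.00126). At 8h the CIE mice had 10.86, 11.13, 11.15, 11.16 and 11.25 and the Ctrl mice 10.45, 10.70 and 11.05, a difference of 0.40 (SE 0.12, adjusted p = 0.0247). The differences were -0.04 at 72h and -0.11 at 7d.

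Arrdc2, an arrestin-domain protein of a family that links membrane proteins to ubiquitin ligases, had the largest difference of the 25 probesets at 0h. CIE mice ran over 7.58, 8.49 and 9.30, against 6.84, 7.22 and 7.66 in Ctrl mice. Mouse 72 gave the lowest CIE value, and the other 5 lay above every Ctrl mouse. The difference was 1.26 (SE 0.19, 95% confidence interval 0.88 to 1.63, adjusted p = 1.2e-05), or 2.39-fold. At 8h CIE mice had 7.24, 7.65, 7.92, 8.11 and 8.33, all above Ctrl mice at 6.86, 6.96 and 7.22. The difference was 0.86 (SE 0.20, adjusted p = 0.00426), or 1.82-fold, with 0.89 in repeat group 1 and 0.84 in repeat group 2. At 72h the groups averaged 6.95 in CIE and 7.06 in Ctrl mice, and at 7d 7.17 and 7.15. Arrdc2 was the only gene with 2 gaps between neighbouring group means larger than the SDs, which set apart the CIE mice at 0h (8.46 ± 0.55, SD), those at 8h (7.85 ± 0.42) and the other 6 groups (6.95 to 7.20).

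Zbtb16 encodes PLZF, a transcription repressor with a zinc finger and BTB domain. At 0h its lead probeset ran over 9.90, 10.28 and 10.43 in CIE mice and over 9.48, 9.86 and 9.91 in Ctrl mice. The difference was 0.42 (SE 0.11, adjusted p = 0.00506), and 5 of 6 CIE mice exceeded every Ctrl mouse. With array weights this probeset missed the threshold at 0h (0.36, adjusted p = 0.0104) and passed at 8h (0.33, adjusted p = 0.00722). A second probeset (1419874_x_at, whose suffix marks possible cross-hybridization) was higher by 0.64 (SE 0.14, adjusted p = 0.00174) without overlap. At 8h the lead probeset differed by 0.33 and did not pass (adjusted p = 0.0424). The second passed at 8h, with 0.67 (SE 0.15, adjusted p = 0.00389) and CIE values of 9.25, 9.30, 9.49, 9.88 and 10.53. The upper pair are the mice of repeat group 2, and the difference was 0.16 in repeat group 1 and 1.34 in repeat group 2. Without mouse 15 it was 0.45 (adjusted p = 0.0325), and with array weights 0.27 (adjusted p = 0.0452). The third probeset (1427638_at) differed by -0.31 at 0h and did not pass (adjusted p = 0.4).

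Sult1a1, a sulfotransferase that conjugates phenols, had the largest difference of the 25 probesets at 8h. At 0h CIE mice ran over 8.51, 9.05 and 9.98 and Ctrl mice over 7.34, 8.42 and 8.78. The difference was 0.89 (SE 0.23, adjusted p = 0.00631), or 1.85-fold, and 4 of 6 CIE mice exceeded every Ctrl mouse. With array weights it was 0.83 and missed the threshold (adjusted p = 0.0121). At 8h CIE mice had 8.45, 9.06, 9.16, 9.24 and 9.52, all above Ctrl mice at 7.44, 7.91 and 8.39. The difference was 1.18 (SE 0.24, 95% confidence interval 0.69 to 1.66, adjusted p = 0.00177), or 2.26-fold, with 0.94 in repeat group 1 and 1.45 in repeat group 2. The differences were -0.30 at 72h (adjusted p = 0.628) and -0.15 at 7d (adjusted p = 0.803). The 8 group means spanned 1.78, with the CIE mice at 0h at the top and those at 7d at the bottom.

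Htra1, a secreted serine protease of the extracellular matrix, was higher at 0h on both of its probesets. On the lead probeset CIE mice ran over 11.59, 11.85 and 12.19 and Ctrl mice over 11.06, 11.40 and 11.64, a difference of 0.48 (SE 0.09, adjusted p = 0.00042). The other probeset (1438251_x_at) was higher by 0.45 (SE 0.10, adjusted p = 0.00252). At 8h all 5 CIE mice, at 11.81, 11.83, 11.83, 11.87 and 12.28, lay above the Ctrl mice at 11.42, 11.61 and 11.73. The difference of 0.32 (SE 0.10) nevertheless did not pass (adjusted p = 0.0301). It was 0.23 without mouse 15 (adjusted p = 0.157), the mouse at 12.28. At 72h and 7d the lead probeset differed by -0.21 each time, with all 6 CIE mice below the Ctrl mean, and neither difference passed (adjusted p = 0.288 and 0.216).

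Of the 6 genes that passed at 8h, none did with the 8h arrays fitted alone, which gave 21 probesets in all, or with only repeat group 1, which left 3 CIE mice at 8h and gave 1187 probesets. With repeat group 1 the differences were 0.94 for Sult1a1, 0.89 for Arrdc2, 0.69 for Sgk1 and 0.45 for Fkbp5, with adjusted p between 0.0391 and 0.0773. Without mouse 15 Arrdc2, Sgk1 and Sult1a1 passed. The Arrdc2 call was lost in 4 of the 11 fits at 8h that left out 1 mouse.

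**Figure D4:**
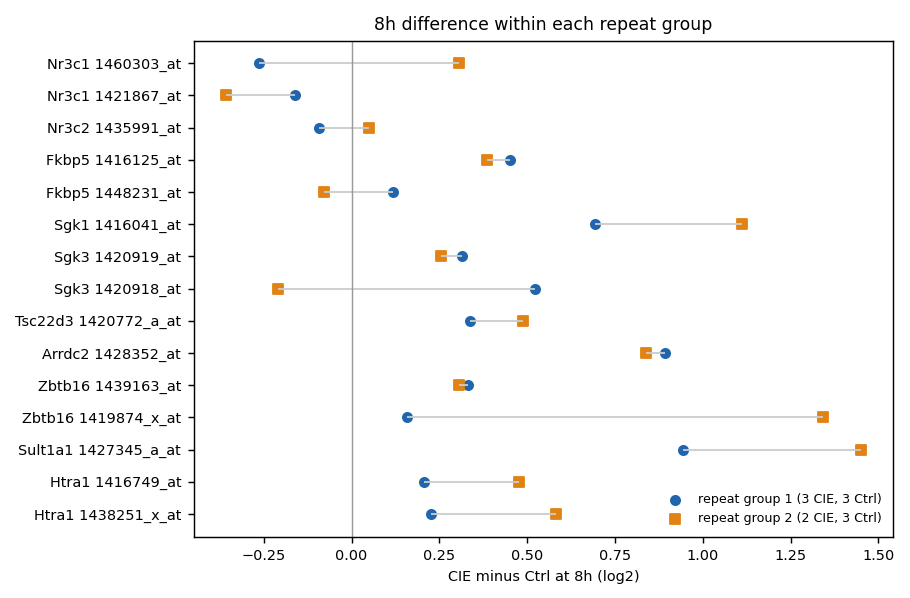
CIE minus Ctrl difference at 8h (x axis, log2) within repeat group 1 (3 CIE and 3 Ctrl mice, circles) and repeat group 2 (2 CIE and 3 Ctrl mice, squares) for each lead probeset and each other probeset that passed at some time (y axis). Arrdc2, Fkbp5 and the Zbtb16 lead probeset lie close together, and Zbtb16 1419874_x_at lies at 0.16 and 1.34.

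The striatal markers were set beside the calls of 0h. When the model also held the striatal marker mean, 8 genes passed at 0h. Of all 45037 probesets 2323 passed there, against 3277 without the term. The difference of Arrdc2 was then 1.11 (adjusted p = 0.000158), of Fkbp5 0.51 (0.00191), of Htra1 0.48 (0.00151), of Sult1a1 0.98 (0.00614) and of Sgk3 0.50 (0.00579). Sgk1 did not pass (0.46, adjusted p = 0.0551), and Tsc22d3 passed on 1425281_a_at but not on its lead probeset (0.43, adjusted p = 0.0154). With the 8 arrays left out whose marker mean was 9 or more, a limit chosen after seeing the data, among them CIE 0h mice 5, 11 and 17, only Arrdc2 passed at 0h (0.98, adjusted p = 0.00425). The others kept their direction at 3 CIE mice against 6 Ctrl mice, with 0.61 for Sult1a1, 0.42 for Zbtb16, 0.40 for Sgk1, 0.39 for Sgk3, 0.38 for Htra1 and 0.36 for Fkbp5, at adjusted p between 0.0342 and 0.202, and with -0.24 for Nr3c1 1421867_at (0.0184). The part of neighbouring tissue in these levels was not tested beyond this. At 8h the marker mean was 8.26 in CIE and 8.26 in Ctrl mice. The 6 genes of 8h passed in both fits, as did Sgk3 on 1450036_at (adjusted p = 0.00269 and 0.00523). Of all probesets 1639 passed at 8h with the term and 1269 with the arrays left out.

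**Figure D5:**
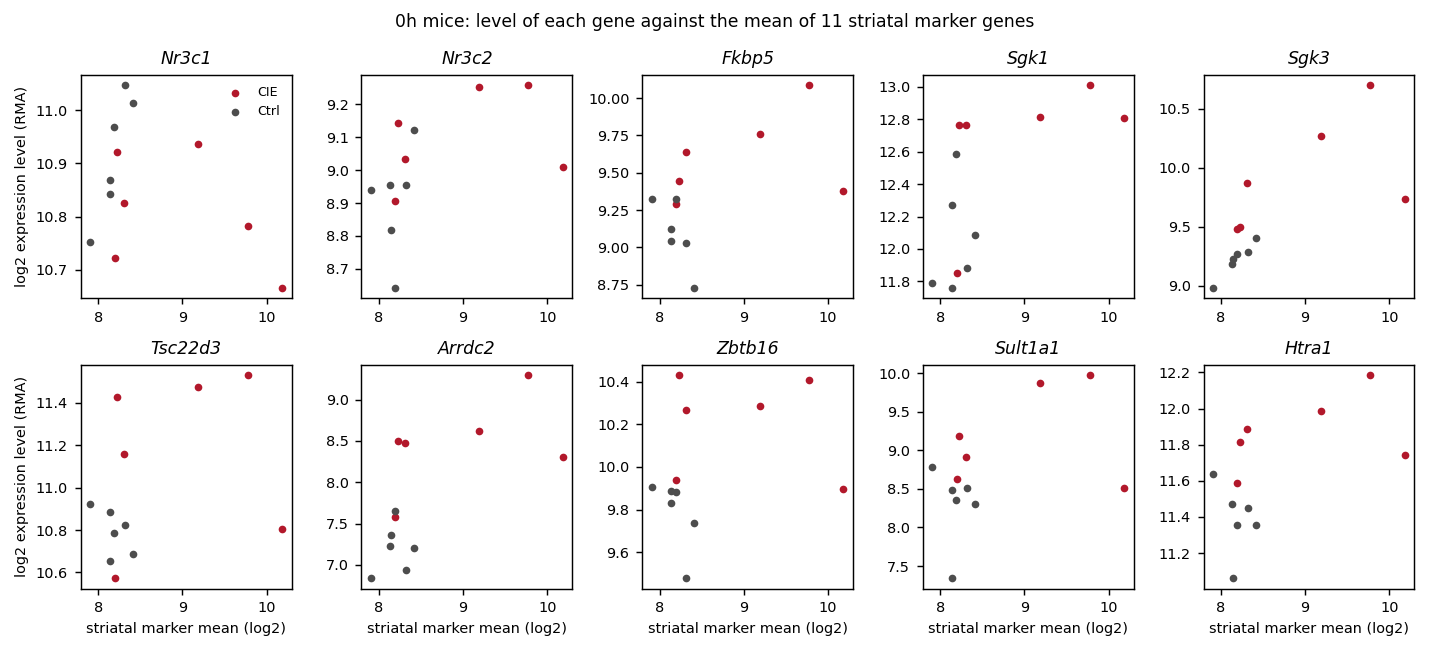
Log2 level of each lead probeset (y axis) against the mean of 11 striatal marker genes (x axis, log2) in the 0h mice, CIE in red and Ctrl in grey. The CIE mice 5, 11 and 17 lie at marker means of 9.19 to 10.18, and CIE mice with marker means of 8.20 to 8.31 lie above the Ctrl mice for Sgk3. Of the CIE mice at 8.20 to 8.31, mice 43 and 67 lie above every Ctrl mouse on all 7 lead probesets that passed at 0h, and mouse 72 on 2. These 7 were picked for passing in the same mice, so the counts are a description and no test.

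The ethanol effect was also compared between times, as the difference of the differences. Between 72h and 0h it passed at FDR ≤ 0.01 in 2 genes, both with a smaller effect at 72h, Arrdc2 (-1.37, SE 0.26, adjusted p = 0.00154) and Htra1 (-0.69, SE 0.13, adjusted p = 0.00152), against 3.27% of all genes. Zbtb16 came next with -0.61 (adjusted p = 0.0102), then Sult1a1 with -1.18 (0.0215), Sgk3 with -0.70 (0.0256) and Fkbp5 with -0.49 (0.0335). Between 7d and 0h only Htra1 passed (-0.69, SE 0.13, adjusted p = 0.00566, against 0.55% of all genes), and Arrdc2 fell just short (-1.24, adjusted p = 0.0104). Between 8h and 0h 0 of 25 probesets passed and 5 reached an unadjusted p of 0.05, against 3.41% of all probesets passing. Intervals were wide, as for Sgk1 (0.25, 95% confidence interval -0.22 to 0.72) and Sult1a1 (0.29, -0.38 to 0.96). For the other target genes no loss of the effect by 72h or 7d was shown by this test, and none of them passed at 72h or 7d. In Ctrl mice alone 0 of 25 probesets differed at 8h, 72h or 7d against 0h, against 1.43%, 2.19% and 0.144% of all probesets, and 3, 2 and 3 reached an unadjusted p of 0.05. Repeat group 2 occurred only at 8h and the values had been adjusted for it, so comparisons of 8h with another time can carry that adjustment. A moderated F test over the 4 Ctrl groups passed for none of the 10 genes (3.02% of all genes). Over all 4 times together a moderated F test passed for 9 of the 10 genes on some probeset (22.6% of all genes), with Nr3c2 the exception (adjusted p = 0.121).

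Over deviations from group means in the 47 arrays, Pearson's r of the 45 pairs of genes ran between -0.34 and 0.72 with a median of 0.31, and 8 pairs exceeded 0.5. The closest pairs were Sgk1 with Arrdc2 (0.72), Tsc22d3 with Sult1a1 (0.64) and Sult1a1 with Htra1 (0.60). The lowest was Nr3c1 with Zbtb16 (-0.34). The deviations share array and normalization, and these values are descriptive.

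Among all other genes, those closest to each member over the same 47 deviations are given in order, from the first down. For Sult1a1 the closest was Gjb6, an astrocyte connexin (r = 0.87). For Sgk1 they were Plekhf1 (0.84), Gm19439 (0.80) and Nfkbia, the inhibitor of NF-kB (0.79), and for Arrdc2 Gm19439 (0.74) and Ddit4, an inhibitor of mTOR (0.72). For Sgk3 they were Rps6ka5 (0.82) and Pdk4, a brake on pyruvate oxidation (0.82), and for Tsc22d3 Arhgef3 (0.77) and Serpina3n (0.73). Htra1 was closest to Cebpd (0.67), Fkbp5 to Wipf3 (0.69) and Zbtb16 to Atp8b2 (0.62). Of the receptors, Nr3c1 was closest to Arid4a (0.91) and Nr3c2 to Gabra4, a GABA receptor subunit (0.77).

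Other genes known to respond to glucocorticoids were read from a list, of which 37 of 40 were measured. At 0h 4 were higher in CIE mice on their lead probeset and none was lower, with a median of 0.17, against 0.008 over all genes and 7.44% of all genes passing on that probeset. Plin4, a lipid droplet coat protein, stood at 8.88 in CIE and 6.34 in Ctrl mice (2.54, SE 0.30, adjusted p = 4.11e-07). Nfkbia (0.51, adjusted p = 0.000358), the purine oxidase gene Xdh (0.61, 0.00144) and Ddit4 (0.63, 0.00687) followed. At 8h 4 were higher and 1 was lower, with a median of 0.13 and 3.49% of all genes passing. Plin4 (2.19, adjusted p = 6.68e-05), the lipid transporter gene Mfsd2a of brain endothelium (0.65, 0.000124), Xdh (0.75, 0.000892) and the cell cycle inhibitor Cdkn1a (0.78, 0.00534) rose, while Tat, a liver enzyme gene at the low level of 5.01 in CIE and 5.40 in Ctrl mice, fell by 0.39 (adjusted p = 0.00329). At 72h and 7d none of the 37 passed on its lead probeset (0.445% and 0.726% of all genes), with medians of -0.08 and -0.03, and the smallest p belonged to Tat (-0.22, adjusted p = 0.168) and Cpt1a (-0.24, adjusted p = 0.0955).

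Hormone supply was read from 17 of 18 listed genes, again by lead probeset, and 2 passed at 0h, against 7.44% of all genes. At 0h Crhbp, which binds corticotropin-releasing hormone, was lower (-0.52, SE 0.12, adjusted p = 0.00177), and H6pd, which feeds cofactor to the enzyme that regenerates corticosterone, was higher (0.45, SE 0.11, adjusted p = 0.0042). That enzyme's gene, Hsd11b1, differed by -0.44 at 7d without passing (adjusted p = 0.0847). Hsd11b2, whose enzyme inactivates corticosterone, was at a low level of 4.63 in CIE and 4.24 in Ctrl mice at 72h and passed there (0.38, adjusted p = 0.00921). At 8h and 7d none of the 17 passed, and Hsd11b2 was the 1 gene to pass at 72h, against 0.445% of all genes. The list medians lay between 0.03 and 0.09 at the 4 times.

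Of the chaperones and immunophilins that hold the receptor, 17 of 21 were measured, with a median of -0.09 at 0h and at 8h. Hspa1a, an inducible Hsp70 (0.65, adjusted p = 0.00122), and the import factor Ipo13 (0.23, adjusted p = 0.00915) were higher at 0h, 2 of 17 against 7.44% of all genes. On lead probesets none passed later. Fkbp4, the immunophilin that opposes Fkbp5 on the receptor, differed by -0.37 at 8h (adjusted p = 0.0457). Of the receptor's coregulators, 34 of 38 were measured and 5 passed at 0h, against 7.44% of all genes, with Ets2 (0.46) and Hdac1 (0.30) higher and Tsg101 (-0.22), Hdac2 (-0.24) and Prmt1 (-0.38) lower, at adjusted p between 0.00187 and 0.00644. Cbx3 (0.45, adjusted p = 0.00843) was higher at 8h, and none passed at 72h or 7d. Of partners and relatives of Sgk1, Arrdc2 and the other members, 27 of 31 were measured. Txnip, an arrestin-domain protein that binds thioredoxin (0.69, adjusted p = 0.0043), and the mTOR complex subunit Mlst8 (0.23, adjusted p = 0.00377) were higher at 0h, with a list median of 0.17, and none passed later. These 2 of 27 are close to the 7.44% of all genes that passed at 0h.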

How the data were processed

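The deposited values are log2 expression levels from Affymetrix mouse arrays, which the authors made by robust multi-array averaging (RMA) and quantile normalization. Their general procedure worked within hybridization batches, then over all arrays, and then applied ComBat. For the PFC they name an exception, in which the repeat group was the only factor corrected for. The sources used here state no software versions. Control probesets, whose names begin with AFFX, were left out. The other 45037 probesets of 47 arrays were used as deposited, and 0 columns of values were left out. Genes came from the platform annotation, updated through Entrez identifiers for 34741 probesets. Of all probesets, 34945 named 1 gene, 932 several and 9160 none.

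Group means of the 8 groups were fitted over all arrays with limma 3.58.1 in R 4.3.3, and p-values were adjusted by Benjamini and Hochberg over all probesets. Tests were two-sided, at FDR ≤ 0.01. No low level was filtered. Each mouse gave 1 array, and the number of mice limits the precision. The lead probeset of a gene was that of highest mean, leaving out those with the suffix _x_at. The 10 genes and all gene lists were chosen with earlier results of these data known. For each list and time, up to 4 genes of smallest p were named among those that passed, or 2 where none did, and for each member the 3 genes of closest pattern were found. Cdkn1a, Prmt1 and the Nr3c1 probesets 1457635_s_at and 1421866_at were named after their values were seen. Alternatives were another normalization, array weights, a level filter, an intensity trend, the repeat group or the striatal markers as a term, single times, repeat group 1 only and each mouse left out. The steps were tested on simulated data with known changes. Of 45037 probesets, 200 each were changed by 0.25, 0.5 and 1 on the log2 scale, with independent noise. In the 0h comparison 14%, 64% and 96.5% of them were recovered. More probesets passed at 0h in the data than were changed here, so the threshold and the recovery in the data can differ.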

Additional observations from a re-analysis of the deposited data

Results flagged for a closer look

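The ethanol effect differed between times in 3 tests, with -1.37 for Arrdc2 between 72h and 0h, -0.69 for Htra1 between 72h and 0h and -0.69 for Htra1 between 7d and 0h. Single mice stood far from the rest of their group in 15 of 120 groups (15 probesets). For independent, normally distributed values the rule used sets apart about 1 in 20 groups. The probesets share the same mice and in part the same gene, and the share over all probesets was not computed. The count is therefore not read as an excess.

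CIE 7d mouse 7 stood apart on 4 probesets. It had 11.50 for Sgk1, with the other 5 mice at 11.78 to 11.86, and 10.16 for Tsc22d3, with the others at 10.51 to 10.63. On the Sgk3 probesets it was high instead, with 9.66 on the lead probeset (others 9.14 to 9.32) and 7.25 on 1420918_at (others 6.82 to 6.97). Its striatal marker mean was 9.72. CIE 8h mouse 15, the array of lowest correlation with the others, had 12.28 and 12.09 on the Htra1 probesets, with the other 4 mice at 11.81 to 11.87 and 11.61 to 11.68. CIE 0h mouse 72 had 11.85 for Sgk1, with the others at 12.77 to 13.01.

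Among the remaining groups, Nr3c1 stood at 11.17 in CIE 72h mouse 3 (others 10.74 to 10.90) and at 10.80 in Ctrl 8h mouse 42 (others 10.94 to 10.98) on the lead probeset, and at 11.08 in Ctrl 72h mouse 24 on 1421867_at (others 10.84 to 10.93). Nr3c2 was 9.11 in Ctrl 8h mouse 50 (others 8.77 to 8.88). Ctrl 8h mouse 32 had 5.98 on Fkbp5 1448231_at (others 6.32 to 6.52) and 11.05 on Htra1 1438251_x_at (others 11.39 to 11.43). Sgk1 was 12.44 in Ctrl 72h mouse 34 (others 11.57 to 11.89), and Sult1a1 was 7.34 in Ctrl 0h mouse 12 (others 8.30 to 8.78).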

How the results depend on the processing

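No paired analysis was possible because each mouse number occurred on 1 array only. The counts below are of all probesets that passed, at 0h, 8h, 72h and 7d, beside 3277, 1527, 238 and 427 in the analysis of the report. Array weights gave 5240, 6772, 881 and 2579, with 1679, 1831 and 5059 for the effect at 7d, 72h and 8h against 0h (123, 811 and 1536 in the report), 14334 for any time (6130) and 8800 for Ctrl mice over time (775). Of the 10 genes they called 6 at 0h, without Sgk1 and Sult1a1 and without Sgk3 1420918_at and Zbtb16 1439163_at. At 8h they called 7, gaining Sgk3 1420918_at, Zbtb16 1439163_at and the Nr3c1 lead probeset 1460303_at (-0.20, adjusted p = 0.00933) and losing Zbtb16 1419874_x_at. At 7d they called 2, Nr3c1 on 1421867_at (-0.15, adjusted p = 0.00998) and Tsc22d3 on 1425557_x_at (0.34, adjusted p = 0.0051). With a mean of 5 or more required, 2016 passed at 0h, 80 at 72h and 154 at 7d, with 954, 322 and 76 for the effect at 8h, 72h and 7d against 0h, 3645 for any time and 251 for Ctrl mice over time. Each time fitted alone gave 2027, 21, 19 and 247, and 2 of the 10 genes at 0h (Arrdc2 and Zbtb16) and 0 at 8h. The repeat group as a term called 7 of the 10 genes at 8h, gaining Sgk3 1450036_at and Nr3c1 1457635_s_at, and gave 3004 at 8h and 2082 for Ctrl mice over time. Repeat group 1 alone gave 2380 for Ctrl mice over time, and 0 of the 10 genes at 8h. Without the 8 arrays of high striatal markers, an alternative chosen after seeing the data, 882, 80 and 134 passed at 0h, 72h and 7d, and 1 of the 10 genes at 0h. The effect between times then missed the threshold for Arrdc2 at 72h (-1.25, adjusted p = 0.0146) and Htra1 at 72h (-0.60, 0.0233) and 7d (-0.59, 0.0633). The cause of these shifts was not tested.

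With 1 mouse left out, 2165 to 2984 probesets and 6 to 9 of the 10 genes passed at 0h, 610 to 1860 probesets and 3 to 7 genes at 8h, 125 to 285 probesets and 0 genes at 72h, and 200 to 539 probesets and 0 genes at 7d. The lowest counts came without CIE 8h mouse 15, CIE 72h mouse 3 and CIE 7d mouse 37 for the last 3 times. At 0h the calls of Arrdc2, Fkbp5, Htra1 and Sgk3 on their lead probesets, of Nr3c1 1421867_at and of Zbtb16 1419874_x_at held with any 1 mouse left out, and at 8h those of Sgk1 and Sult1a1. The Sgk1 call at 0h was lost in 9 of 12 such fits, and the 0h calls of Sult1a1 and Zbtb16 1439163_at in 6 of 12 each. The Fkbp5 call at 8h was lost in 7 of 11, the Arrdc2 call at 8h in 4 of 11, and the Htra1 effect between 7d and 0h in 8 of 24. Another probeset turned the sign for Fkbp5 (1447736_at, -0.080 at 0h and -0.16 at 8h) and for Zbtb16 (1427638_at, -0.31 at 0h). Each called difference was refitted under several settings, most often with 1 mouse left out, so the refits share most arrays. None of these 447 refits changed sign. The call was lost in 62 refits with 1 mouse left out and in 43 under other settings. Of 840 refits of differences that were not called 58 changed sign, all of differences within 0.08 of 0 in the report. Dim probesets and groups of 5 or 6 mice limit what could be seen, and a difference of 0.25 was recovered in 14% of simulated cases at 0h.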
